A study of Mus musculus with 24 samples.

Results

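The genes described here are the histone acetyltransferases Kat2a, Kat2b, Kat5, Kat6a, Kat6b, Kat7, Kat8, Ep300, Crebbp and Hat1. They were chosen by name, as every noncontrol probe whose gene name on the array is a member or an older synonym, such as Pcaf for Kat2b or Gcn5l2 for Kat2a. This gave 20 probes of 10 genes among the 41174 different probes and 27962 gene names of the array, and 12 of the 20 carry an older symbol. The cells were immortalized mouse embryonic fibroblasts of genotype Ku70-/-, which lack an end-joining protein needed to repair DNA double-strand breaks, and every group including the controls carried that deletion. One set of 15 arrays held untreated cells, cells given 20 mM KBrO3 (potassium bromate, an oxidizing agent that damages DNA) and sampled at 4 or 24 hr, and cells co-exposed to 20 mM KBrO3 and 150 μM BPA (bisphenol A) at the same times. A second set of 9 arrays held its own untreated cells and cells given 150 μM BPA alone, at 4 or 24 hr. Each of the 8 groups had 3 arrays, which the study describes as biological replicates. The KBrO3 was given for 1 hr and times count from its start, and co-exposed cells were in BPA from 1 hr earlier. For cells given BPA alone the exposure lasted 4 or 24 hr by the sample labels and 1 hr longer by the methods. The control labels of the first set carry a 4, those of the second carry no time, and no control is labelled 24 hr. All groups came from 1 line, and no cells with Ku70 were analysed here, so what the deletion adds to any difference cannot be told.

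Histone acetyltransferases move an acetyl group from acetyl-CoA onto lysines of histone tails, which loosens the hold of the tail on DNA and creates a mark that bromodomain proteins read. They fall into a GNAT family (Kat2a, also called GCN5, Kat2b, also called PCAF, and the cytoplasmic Hat1, which acetylates newly made histones), a MYST family (Kat5 or TIP60, Kat6a or MOZ, Kat6b or MORF, Kat7 or HBO1, and Kat8 or MOF) and the paired coactivators Crebbp (CBP) and Ep300 (p300). Most work inside large complexes that set their target, and several, Kat5 and Kat8 among them, are recruited when chromatin is opened around damaged DNA.

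The probes are 60 bases long. The array files of the first set place them on the mouse build mm7, while those of the second name mm9. All positions given here are those of mm7. No annotation of that build was used, so exons and untranslated regions were not assigned, but 3 probes align over more genome than their own length, which places them across a splice junction. They are shown with the Kat2a probe because they read Kat2b and Hat1, the members with the largest fall and rise against untreated cells, Kat2a, which rose while Kat2b fell, and Kat5, the enzyme of the TIP60 complex. All are printed 5′ to 3′ in lower case.
Kat2b, probe A_52_P87955, chr17:51809885-51813306, plus strand: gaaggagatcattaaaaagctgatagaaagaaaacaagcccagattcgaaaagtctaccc
Hat1, probe A_51_P369636, chr2:71265400-71277774, plus strand: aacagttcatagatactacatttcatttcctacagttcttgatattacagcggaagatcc
Kat5, probe A_52_P584109, chr19:5498325-5498465, minus strand: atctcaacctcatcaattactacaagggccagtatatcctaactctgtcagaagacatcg
Kat2a, probe A_51_P312528, chr11:100814298-100814357, minus strand: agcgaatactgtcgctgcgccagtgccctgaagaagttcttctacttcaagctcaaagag
The genomic spans are 3422 bases for the Kat2b probe, 12375 for the Hat1 probe, 141 for the Kat5 probe and 60 for the Kat2a probe. The longest run of bases that probes of different members share is 9, found between a Crebbp and the Kat2a probe and between an Ep300 and a Kat6b probe.

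The scanner software put 57.7% to 68.1% of spots of a first-set array well above background and 76.4% to 79.4% of a second-set array, and the number of arrays limits the precision. Each set lay on 5 slides. In the first set only KBrO3 at 4 hr shared a slide with a control, so for its other comparisons with untreated cells slide and treatment cannot be told apart. Of 12 fibroblast markers, 11 were above background on every array of the first set and 12 on every array of the second, and the exception, Thy1, was so on 10 of 15. On every first-set array 1 of 5 epithelial, 1 of 4 endothelial and 2 of 5 leukocyte and macrophage markers were above background too. So was 1 of 3 adipocyte markers, Fabp4, and 0 of 4 for skeletal muscle. Detection alone therefore does not single out fibroblasts. The mean log2 level of the fibroblast markers in the first set ran from 5.85 to 5.91 in untreated cells. At 4 hr it ran from 5.61 to 5.66 after KBrO3 and from 5.38 to 5.4 after co-exposure. At 24 hr it ran from 4.18 to 4.27 and from 3.69 to 3.79 in the same order. Its part in the results below was not tested, and in bulk RNA fewer cells of a type and less RNA per cell cannot be told apart. The Xrcc6 (Ku70) probe was above background on every array, with levels of -0.60 to 0.57 (first set) and -0.55 to 0.73 (second set), and no sources used here say whether it lies outside the deleted part, so it does not check the genotype.

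Levels below are log2 signals minus the array's 75th percentile, and a difference is between group means on that scale. Probes entered the test of a set if 1 or more of its groups had them above background on all 3 arrays, which kept 16 member probes of 27310 in the first set and 17 of 31806 in the second, with all 10 genes in both. Left out of both were Ep300 probe A_51_P304029, Kat2b probe A_52_P642157 and Kat6b probe A_52_P480835, and Ep300 probe A_51_P142128 was left out of the first set, where it was above background on 0 of 15 arrays. A probe is called here at a Benjamini-Hochberg adjusted p below 0.05 in limma over all probes of its set, and altered, by the thresholds of the methods, at a Bonferroni-adjusted p below 0.01 with a fold change beyond 1.5. The median residual SD was 0.0922 for the member probes of the first set and 0.322 for those of the second, beside 0.107 and 0.34 over all probes, so that differences of the same size are far less readily called in the second set.

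At 4 hr after KBrO3, Kat2b and Kat6b had fallen and Kat7 and Hat1 had risen, and at 24 hr the same 4 genes still differed from untreated cells in these directions. At 4 hr 14 of 16 member probes were called, 8 higher and 6 lower, against 72.1% of all probes (36.3% higher, 35.8% lower), and 4 were altered against 28.8%. With slide as a fixed block 9 were called, and 8 with normexp background correction, and the shares of all probes under these settings are not given. Co-exposure at 4 hr gave 13 called probes, 5 higher and 8 lower, against 78.6% of all probes (41.6% and 37%), with 5 altered against 32.6%. At 24 hr KBrO3 gave 9 called, 5 higher and 4 lower, against 66.2% (32.1% and 34%), with 3 altered against 16.8%. Co-exposure at 24 hr gave 11 called, 5 higher and 6 lower, against 69.9% (32.9% and 37%), with 4 altered against 20.8%. The called shares of the member probes were 87.5%, 81.2%, 56.2% and 68.8% in that order, and the altered shares 25%, 31.2%, 18.8% and 25%, so they lay above the background in some comparisons and below it in others. No difference from the background was tested, and nothing is read from these shares about the family. The median log2 fold change of the member probes was 0.26, -0.09, 0.12 and -0.03 in the same order, beside 0.059, 0.082, -0.024 and -0.067 over all probes tested.

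**Figure D1:**
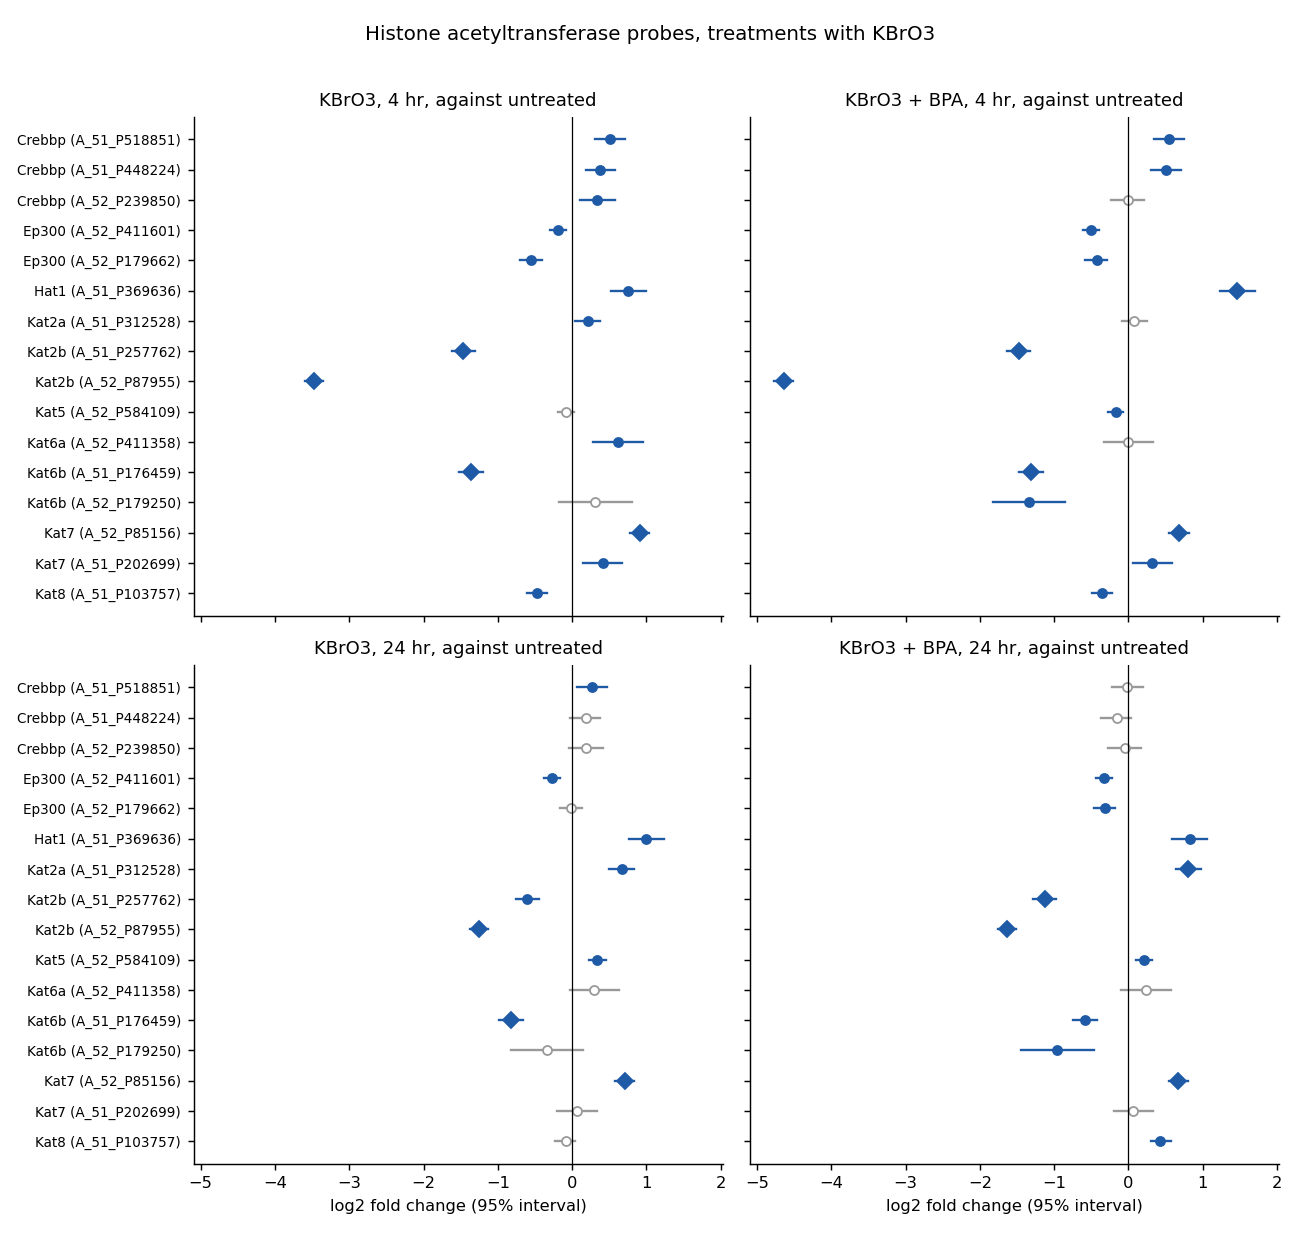
Log2 fold change of the 16 tested histone acetyltransferase probes against untreated cells of the first set (x axis), with 95% intervals, 1 row a probe and 1 panel a treatment. Blue filled symbols are called probes, diamonds altered ones and open grey circles probes not called. Kat2b probe A_52_P87955 lies farthest to the left in all 4 panels, at -3.48 and -4.64 at 4 hr and -1.26 and -1.64 at 24 hr.

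Among the GNAT enzymes Kat2b fell the most, and 2 of its 3 probes were measured. Probe A_52_P87955 read 0.58, 0.64 and 0.56 on the untreated arrays and -2.88, -2.82 and -2.95 at 4 hr after KBrO3. The 3 co-exposed arrays at 4 hr read -3.95, -4.16 and -4.03. At 24 hr the KBrO3 arrays read -0.71, -0.64 and -0.63 and the co-exposed arrays -1.09, -0.98 and -1.06. The 5 groups did not overlap and ordered as untreated, KBrO3 at 24 hr, co-exposed at 24 hr, KBrO3 at 4 hr and co-exposed at 4 hr, from high to low. Against untreated cells the level was 11.1-fold lower 4 hr after KBrO3 (difference -3.48, SE 0.057, adjusted p 2.1e-13) and 25-fold lower after co-exposure (-4.64, SE 0.057, adjusted p 2.08e-14). At 24 hr it was 2.39-fold lower after KBrO3 and 3.11-fold lower after co-exposure (adjusted p 2.26e-09 and 1.35e-10). With 1 array left out or another scaling the 4 hr differences stayed between -3.55 and -2.76 after KBrO3 and between -4.94 and -3.41 after co-exposure, the smallest in size with normexp background correction. Within the slide that held 1 control and the 3 KBrO3 arrays, the difference at 4 hr was -3.45.

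The other Kat2b probe, A_51_P257762 at chr17:51821487-51821546, fell less. It read -0.10, -0.03 and 0.05 in untreated cells and -1.56, -1.45 and -1.48 at 4 hr after KBrO3. Co-exposed cells at 4 hr read -1.56, -1.49 and -1.49, so these 2 groups overlapped while both lay below all 3 controls. At 24 hr the KBrO3 arrays read -0.68, -0.59 and -0.63 and the co-exposed arrays -1.11, -1.33 and -1.05. The falls were 2.76-fold and 2.79-fold at 4 hr (adjusted p 1.28e-09 and 9.65e-10) and 1.52-fold and 2.19-fold at 24 hr (8.13e-06 and 2.21e-08), in the order KBrO3 and co-exposure. Both probes thus fell in all 4 treatments, under every alternative run. The third Kat2b probe was above background on 0 of 24 arrays. Why the 2 falls differ in size was not tested.

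Kat2a, the closest relative of Kat2b and its alternative in the same complexes, went the other way at 24 hr. It read -0.42, -0.57 and -0.31 in untreated cells, 0.22, 0.19 and 0.27 at 24 hr after KBrO3 and 0.43, 0.48 and 0.20 after co-exposure, with every treated array above every control. The rises were 1.59-fold (SE 0.077 on the log2 scale, adjusted p 8.82e-06) and 1.75-fold (SE 0.077, adjusted p 1.36e-06), and only the latter was altered. At 4 hr the Kat2a difference after KBrO3 was 0.21 (adjusted p 0.0276), and the call was lost with 1 array left out in 5 cases, with array-median scaling, with normexp and with either slide block. After co-exposure it was 0.08 and was not called (adjusted p 0.365).

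Hat1 was higher in all 4 treatments. Its probe read 2.00, 2.14 and 2.22 in untreated cells, 2.86, 2.88 and 2.88 at 4 hr after KBrO3 and 3.59, 3.54 and 3.62 at 4 hr after co-exposure, and these groups did not overlap. At 24 hr it read 3.14, 3.17 and 3.02 after KBrO3 and 2.90, 2.71 and 3.24 after co-exposure, which overlapped each other and lay above the controls. The rise was 1.68-fold at 4 hr after KBrO3 and 2.75-fold after co-exposure, the latter altered (difference 1.46, SE 0.11, adjusted p 7.02e-08), and 1.99-fold and 1.78-fold at 24 hr. Across the alternatives the difference stayed positive and called in these 4 comparisons, the lowest value being 0.56.

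**Figure D2:**
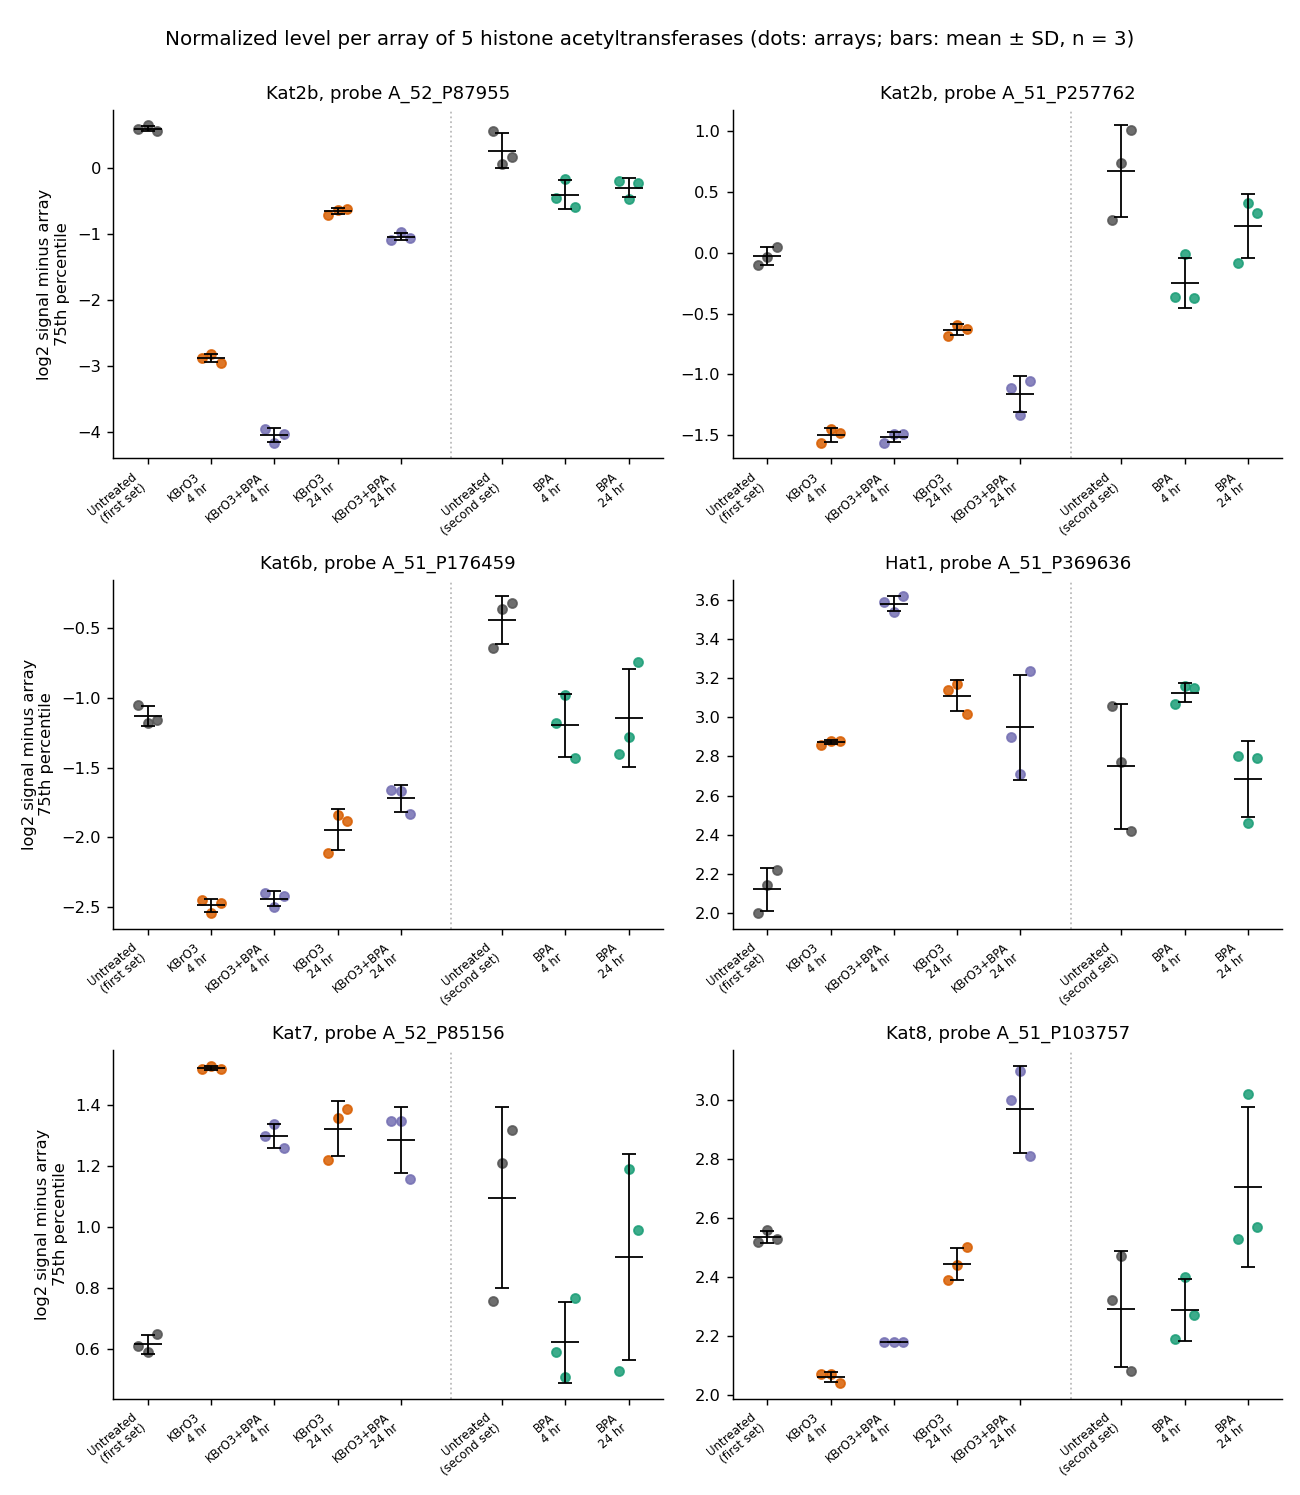
Log2 signal minus the array's 75th percentile (y axis) on each array for 6 probes of Kat2b, Kat6b, Hat1, Kat7 and Kat8, by group (x axis), with the mean and SD of 3 arrays. A dotted line parts the first set from the second, which were scanned and normalized separately. The 2 Kat2b probes and Kat6b lie lowest at 4 hr in KBrO3 with or without BPA, and Kat8 lies highest in co-exposed cells at 24 hr, where it reads 2.81 to 3.1.

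In the MYST family Kat6b (MORF) fell and Kat7 (HBO1) rose. Kat6b probe A_51_P176459 read -1.05, -1.18 and -1.16 in untreated cells, -2.45, -2.54 and -2.47 at 4 hr after KBrO3 and -2.40, -2.50 and -2.42 after co-exposure. At 24 hr it read -2.11, -1.84 and -1.88 after KBrO3 and -1.66, -1.67 and -1.83 after co-exposure. All treated arrays were below all controls, and the 2 groups at 4 hr overlapped each other. The falls were 2.56-fold and 2.48-fold at 4 hr (SE 0.073 each on the log2 scale, adjusted p 4.42e-09 and 5.18e-09) and 1.76-fold and 1.51-fold at 24 hr (adjusted p 9.47e-07 and 1.42e-05). The call at 24 hr after co-exposure was lost with array-median scaling (difference -0.27, adjusted p 0.0627), and within the slide shared with a control the 4 hr KBrO3 difference was -1.32.

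A dimmer Kat6b probe, A_52_P179250, lies at chr14:19179981-19180040 and read differently from the first. It was -4.57, -4.47 and -4.67 in untreated cells and -4.45, -4.68 and -3.65 at 4 hr after KBrO3, which overlapped (difference 0.31, adjusted p 0.233). None of the co-exposed arrays had it well above background, which leaves a bound. The level was at least 1.83-fold lower at 4 hr and at least 1.61-fold lower at 24 hr than in untreated cells (adjusted p 0.000146 and 0.00216, limma). The call at 24 hr was lost with quantile normalization and with slide as a random block. The third Kat6b probe was above background on 0 of 24 arrays, so the fall of Kat6b after KBrO3 alone rests on 1 probe.

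Kat7 probe A_52_P85156 read 0.61, 0.59 and 0.65 in untreated cells and 1.52, 1.53 and 1.52 at 4 hr after KBrO3. The co-exposed arrays read 1.3, 1.34 and 1.26 at 4 hr, and at 24 hr the arrays read 1.22, 1.36 and 1.39 after KBrO3 and 1.35, 1.35 and 1.16 after co-exposure. Each treated array was above each control, and the rise was 1.88-fold (SE 0.059 on the log2 scale, adjusted p 2.56e-08), 1.60-fold, 1.63-fold and 1.59-fold in that order, altered in all 4. The second Kat7 probe, A_51_P202699, was higher by 0.41 at 4 hr after KBrO3 (adjusted p 0.01) and by 0.32 after co-exposure (adjusted p 0.0289), but turned to -0.86 and -0.91 with normexp, where the median over all probes moved to -0.456 and -0.444. The KBrO3 call was also lost with either slide block. The co-exposure call was also lost with quantile normalization (0.08, adjusted p 0.571), array-median scaling, slide as a random block, and without control replicate 1 or co-exposed replicate 1 (0.24 and 0.23). At 24 hr it differed by 0.07 and 0.06 (adjusted p 0.646 and 0.662).

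Kat8 (MOF) was lower at 4 hr and, after co-exposure, higher at 24 hr. It read 2.52, 2.56 and 2.53 in untreated cells and 2.07, 2.07 and 2.04 at 4 hr after KBrO3, and the co-exposed arrays at 4 hr all read 2.18. At 24 hr it read 2.39, 2.44 and 2.50 after KBrO3 and 3.00, 3.1 and 2.81 after co-exposure. The level was thus below the controls at 4 hr, by 1.39-fold after KBrO3 and 1.28-fold after co-exposure (adjusted p 1.62e-05 and 0.000188). At 24 hr it was 1.35-fold above them after co-exposure (adjusted p 4.99e-05), whereas after KBrO3 the difference of -0.09 was not called (adjusted p 0.211). Both 4 hr calls were lost with normexp (-0.25 and -0.15, adjusted p 0.136 and 0.347).

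Kat5 (TIP60) was higher at 24 hr after both treatments, and Kat6a (MOZ) was higher at 4 hr after KBrO3. Kat5 ran from 0.41 to 0.57 in untreated cells and differed by -0.08 and -0.17 at 4 hr, the latter called except with normexp, and by 0.34 and 0.21 at 24 hr, both called (adjusted p 5.99e-05 and 0.00251), in the order KBrO3 and co-exposure. Kat6a was called once, at 0.62 higher 4 hr after KBrO3 (SE 0.15, adjusted p 0.00299), where its arrays read -1.99, -1.96 and -2.02 against -2.80, -2.59 and -2.43. This turned to -0.17 with normexp and missed the threshold with slide as a fixed block (0.44, adjusted p 0.0598), and the other 3 differences lay between 0.00 and 0.30.

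The coactivators went in opposite directions at 4 hr. Crebbp representative probe A_51_P518851 was higher by 0.51 after KBrO3 and by 0.55 after co-exposure (SE 0.092 each, adjusted p 0.000311 and 0.000155), with the treated arrays from 1.75 to 1.85 and the controls from 1.2 to 1.31. Crebbp probe A_51_P448224 was higher by 0.38 and 0.51, but turned to -0.50 and -0.42 with normexp, and probe A_52_P239850 was higher by 0.34 after KBrO3, turning to -0.41 with normexp, and differed by -0.01 after co-exposure. With slide as a fixed block the KBrO3 calls on these 2 probes were lost at 0.14 and 0.17 (adjusted p 0.169 and 0.278), and with slide as a random block that on A_52_P239850 was lost too (0.22, adjusted p 0.102). On the slide shared with a control the differences were 0.14 and 0.17. At 24 hr only the first of the 3 was called after KBrO3 (0.27, adjusted p 0.0212), and that call was lost without control replicate 3 and without KBrO3 replicate 1 or 2. None of the 3 was called after co-exposure at 24 hr, with differences between -0.16 and -0.02 (adjusted p from 0.143 to 0.881) and limma unadjusted p values of 0.111 or more, and the error-weighted model called none of them.

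Ep300 was lower. Probe A_52_P411601 differed from untreated cells by -0.19 and -0.50 at 4 hr and by -0.27 and -0.33 at 24 hr, in the order KBrO3 and co-exposure (adjusted p 0.00511, 1.59e-06, 0.000454 and 8.53e-05). The first was lost with array-median scaling and with either slide block, and the 2 at 24 hr were lost with array-median scaling. Ep300 probe A_52_P179662 differed by -0.56 and -0.43 at 4 hr and by -0.32 at 24 hr after co-exposure, the last reaching 0.00 with quantile normalization and -0.01 with array-median scaling, and by -0.02 at 24 hr after KBrO3, which was not called.

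Adding BPA to KBrO3 at 4 hr went with a lower Kat2b and a higher Hat1 than KBrO3 alone. Of 16 member probes 7 were called, 1 higher and 6 lower, against 57.8% of all probes (29.2% higher, 28.6% lower), and 1 was altered against 4.99%. All co-exposed arrays at 4 hr lay on 1 slide that held no KBrO3 array of that time, so slide and BPA cannot be told apart here. Kat2b probe A_52_P87955 was 2.24-fold lower (difference -1.17, SE 0.057, adjusted p 3.83e-08), while Kat2b probe A_51_P257762 differed by -0.02 with a 95% interval from -0.17 to 0.14. Hat1 was 1.63-fold higher (0.71, SE 0.11, adjusted p 0.000163). The dimmer Kat6b probe was at least 2.27-fold lower, Kat6a 1.53-fold lower and Kat7 probe A_52_P85156 1.17-fold lower, with Ep300 probe A_52_P411601 and Crebbp probe A_52_P239850 differing by -0.31 and -0.35. Slide as a random block lost the Kat6a, Kat7 and Crebbp calls, and normexp lost these and those of Ep300 and Kat6b, leaving Kat2b and Hat1.

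At 24 hr the same contrast gave 9 called probes, 2 higher and 7 lower, against 46.7% of all probes (23.1% and 23.7%), and 0 altered in limma against 5.8%. The count was 10 at an unadjusted p below 0.05 and 8 called in the error-weighted model. The shares above do not apply to these counts. The limma count of 9 fell to 5 without KBrO3 replicate 1 of that time and likewise without co-exposed replicate 1 or 2. Kat8 was 1.44-fold higher in co-exposed cells (difference 0.52, SE 0.062, adjusted p 2.59e-05), and 0.58 on the 1 slide that held 2 arrays of each group. Kat2b was lower on both probes, by 1.44-fold on A_51_P257762 and 1.3-fold on A_52_P87955 (adjusted p 6.34e-05 and 0.000179), and by -0.61 and -0.40 on the log2 scale on that slide. The A_52_P87955 call was lost with array-median scaling (-0.21, adjusted p 0.102) and with normexp (-0.37, adjusted p 0.0662). The other called probes were those of Crebbp, Ep300, Kat6b and Kat5. Crebbp was lower by -0.34 on A_51_P448224 (adjusted p 0.0107) and by -0.29 on A_51_P518851 (adjusted p 0.0227), and Ep300 by -0.31 on A_52_P179662 (adjusted p 0.00212). Array-median scaling and normexp lost these 3 calls, quantile normalization lost that of Ep300, and that on A_51_P518851, whose arrays overlapped, was also lost when the 2 groups were fitted alone and without replicate 1 or 2 of either group. Kat6b probe A_51_P176459 was higher by 0.22 (adjusted p 0.0249), lost with normexp, with the 2 groups fitted alone and without KBrO3 replicate 1 or co-exposed replicate 1 or 2. The dimmer Kat6b probe was at least 1.27-fold lower (adjusted p 0.0397), a call kept under 9 of 25 alternatives. The Kat5 difference of -0.13 (adjusted p 0.042) was called under 9 of 26 alternatives and turned to 0.03 with array-median scaling. Hat1 differed by -0.16 with a 95% interval from -0.40 to 0.07, and by -0.30 with slide as a fixed block, where it was called (adjusted p 0.00992).

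**Figure D3:**
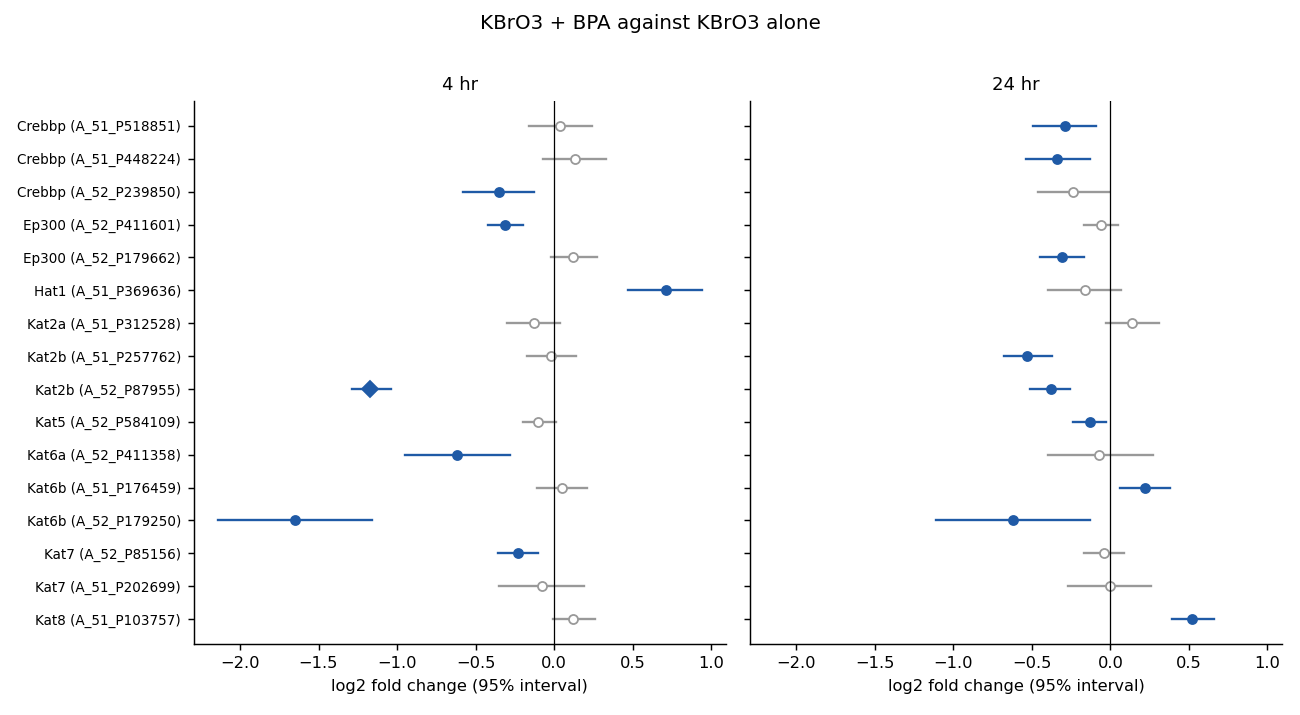
Log2 difference of co-exposed from KBrO3-only cells (x axis) at 4 and 24 hr, with 95% intervals, for the 16 tested member probes, with symbols as for the treatments against untreated cells. Kat2b probe A_52_P87955 is the 1 altered probe, at -1.17 at 4 hr, and Kat8 and Hat1 are the farthest to the right at 24 and 4 hr, at 0.52 and 0.71.

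The change of this BPA difference from 4 to 24 hr was called for 9 of 16 member probes, 5 higher and 4 lower, against 54.3% of all probes (25.5% and 28.7%), and 0 were altered against 3.84%. The count was 12 at an unadjusted p below 0.05 and 7 in the error-weighted model, and the shares above do not apply to these counts. Hat1 changed by -0.87 (SE 0.15, adjusted p 0.000555), and Kat8 by 0.40 (SE 0.087, adjusted p 0.00237). The 2 Kat2b probes changed in opposite directions, A_52_P87955 by 0.79 (SE 0.081, adjusted p 1.44e-05) and A_51_P257762 by -0.51 (SE 0.098, adjusted p 0.00107). Crebbp probe A_51_P448224 changed by -0.47 (SE 0.13, adjusted p 0.0107) and Ep300 probe A_52_P179662 by -0.43 (SE 0.092, adjusted p 0.00209), and both calls were lost with quantile normalization and array-median scaling. Ep300 probe A_52_P411601 went up by 0.25 (SE 0.071, adjusted p 0.0112). Kat6a changed by 0.55 (SE 0.22, adjusted p 0.0482), a call kept under 9 of 25 alternatives. The dimmer Kat6b probe is counted among the 5 higher but was not well above background on any co-exposed array at either time, so no size is given for it, and the count without it is 8, with 4 higher and 4 lower. Since the 4 hr arrays of the 2 treatments share no slide, slide and the 4 hr part of this contrast cannot be told apart. Normexp left 1 called member probe in this contrast, Hat1, and lost the other 8. Array-median scaling also lost the call on A_51_P257762 (-0.20, adjusted p 0.237).

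From 4 to 24 hr Kat2b came back towards the controls after both treatments. After KBrO3 11 of 16 member probes were called, 7 higher and 4 lower at 24 hr, against 75.3% of all probes (33% and 42.3%), and 2 were altered against 26.7%. After co-exposure 10 were called, 7 higher and 3 lower, against 81.2% (32.8% and 48.4%), and 2 were altered against 30.1%. The KBrO3 arrays of 4 hr share no slide with those of 24 hr, so slide and time cannot be told apart after KBrO3, and the co-exposed arrays of the 2 times share none either, their fit with slide as a fixed block resting on the KBrO3 arrays at 24 hr. Kat2b probe A_52_P87955 was 4.66-fold higher at 24 than at 4 hr after KBrO3 and 8.03-fold higher after co-exposure (differences 2.22 and 3.01, SE 0.057 each), yet the arrays at 24 hr still lay below every control. On A_51_P257762 the rises were 1.82-fold and 1.27-fold, and the second missed the threshold with slide as a fixed block (0.22, adjusted p 0.106). Kat8 was 1.73-fold higher after co-exposure and 1.31-fold higher after KBrO3, Kat2a 1.65-fold and 1.37-fold higher, and Kat6b probe A_51_P176459 1.65-fold and 1.46-fold higher, the last lost with normexp (0.29, adjusted p 0.156). The dimmer Kat6b probe A_52_P179250 went the other way after KBrO3, 1.57-fold lower at 24 than at 4 hr (-0.65, SE 0.22, adjusted p 0.0189), although its arrays overlapped. That call was lost under 6 alternatives, among them leaving out KBrO3 replicate 3 at 4 hr (-0.35) or at 24 hr (-0.50). Hat1 was 1.55-fold lower at 24 than at 4 hr after co-exposure, a call lost with array-median scaling (-0.17, adjusted p 0.176), whereas after KBrO3 it was higher by 0.24 (adjusted p 0.0592).

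Some probes of the coactivators, Kat5 and Kat7 were also called between the times. Of the 3 Crebbp probes 2 were lower at 24 than at 4 hr after co-exposure, 1.59-fold on A_51_P448224 (-0.67, SE 0.093, adjusted p 3.04e-05) and 1.48-fold on A_51_P518851 (-0.56, SE 0.092, adjusted p 0.000121). The former call was lost with normexp and the latter with array-median scaling. The third, A_52_P239850, differed by -0.04 (adjusted p 0.745) and its groups overlapped. After KBrO3 the A_51_P518851 difference was -0.24 (adjusted p 0.0354), called under 15 of 25 alternatives, and the other 2 were not called (-0.20 and -0.15, adjusted p 0.0649 and 0.195). In each treatment 1 of the 2 Ep300 probes was called. After KBrO3 A_52_P179662 was higher at 24 hr by 0.54 (1.45-fold, adjusted p 9.13e-06), turning to -0.15 with normexp, while A_52_P411601 differed by -0.08 (adjusted p 0.148). After co-exposure A_52_P411601 was higher by 0.17 (adjusted p 0.00917), lost with normexp and with slide as a fixed block, while A_52_P179662 differed by 0.11 (adjusted p 0.144). Kat5 was 1.34-fold higher after KBrO3 and 1.3-fold after co-exposure (adjusted p 7.24e-06 and 1.58e-05), called under every alternative run. Kat7 was lower at 24 hr after KBrO3, by -0.34 on A_51_P202699 (adjusted p 0.0246, called under 17 of 25 alternatives) and by -0.20 on A_52_P85156 (adjusted p 0.00817, lost with quantile normalization, array-median scaling and normexp). After co-exposure these 2 probes differed by -0.26 and -0.01 and were not called (adjusted p 0.0672 and 0.859). Kat6a was called in neither treatment, at -0.32 after KBrO3 and 0.23 after co-exposure (adjusted p 0.0784 and 0.173).

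After BPA alone no member probe was called by limma, 0 of 17 at 4 hr against 4.24% of all probes and 0 of 17 at 24 hr against 3.41%, and the difference between these times gave 0 against 3.79%. At an unadjusted p below 0.05 there were 3, 2 and 0 such probes, and the error-weighted model called 0 in each. The shares of all probes above are for adjusted limma calls, so these counts have no background and nothing is read from them. The lowest unadjusted values belonged to Kat2b and Kat6b. Kat2b probe A_51_P257762 read 0.27, 0.74 and 1.01 in the untreated cells of this set, -0.36, -0.01 and -0.37 at 4 hr and -0.08, 0.41 and 0.33 at 24 hr, so that all 4 hr arrays were below every control and only 1 of the 24 hr arrays was. The difference was -0.92 at 4 hr with a 95% interval from -1.47 to -0.37 (adjusted p 0.0741) and -0.45 at 24 hr (-1.01 to 0.10, adjusted p 0.371). Without control replicate 1 the 4 hr value was called at -1.12 (adjusted p 0.0495), and with slide as a fixed block it was -0.64 at 4 hr and -0.71 at 24 hr (adjusted p 0.445 and 0.153).

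The other values of that kind were these. Kat2b probe A_52_P87955 read 0.56, 0.06 and 0.16 in the controls, -0.46, -0.17 and -0.60 at 4 hr and -0.20, -0.47 and -0.23 at 24 hr, differences of -0.67 (-1.14 to -0.19, adjusted p 0.123) and -0.56 (-1.04 to -0.09, adjusted p 0.201). Kat6b probe A_51_P176459 read -0.64, -0.36 and -0.32 in the controls, -1.18, -0.98 and -1.43 at 4 hr and -1.40, -1.28 and -0.74 at 24 hr, differences of -0.76 (-1.28 to -0.23, adjusted p 0.114) and -0.70 (-1.23 to -0.18, adjusted p 0.15). In both probes every BPA array lay below every control. With slide as a fixed block the 4 and 24 hr differences were -1.09 and -0.45 for this Kat2b probe (adjusted p 0.306 and 0.289) and -0.66 and -1.0 for the Kat6b probe (adjusted p 0.449 and 0.114), the first over 1.5 times as large as without the block. For the other members the intervals held 0. Kat8 at 24 hr read 2.53, 3.02 and 2.57 against 2.32, 2.47 and 2.08 in the controls, each BPA array above each control, a difference of 0.42 (-0.04 to 0.88, adjusted p 0.322), and 0.50 with slide as a fixed block. Hat1 at 4 hr read 3.07, 3.16 and 3.15 against 3.06, 2.77 and 2.42, likewise without overlap, a difference of 0.38 (adjusted p 0.388) that was 0.05 with slide as a fixed block. For Hat1 at 4 hr the interval ran from -0.10 to 0.86, and for Kat7 probe A_52_P85156 from -1.0 to 0.06.

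**Figure D4:**
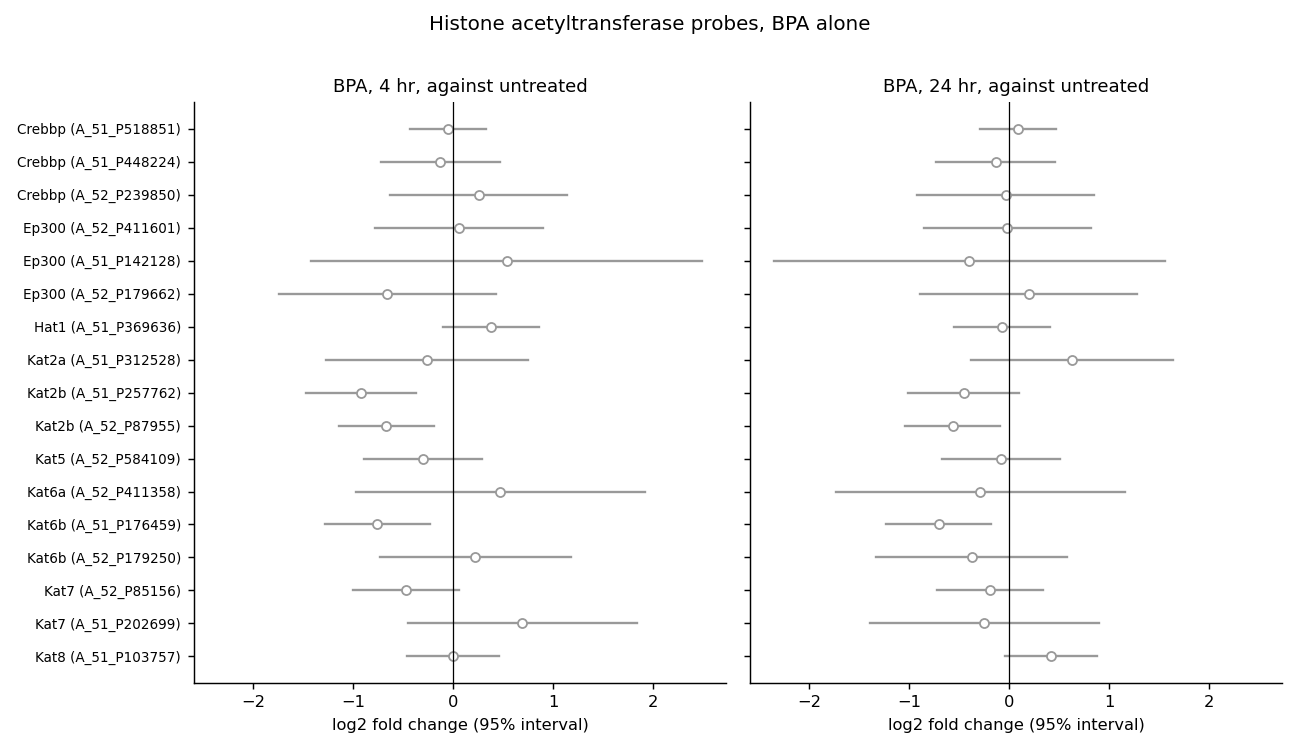
Log2 difference of BPA-only cells from the untreated cells of their set (x axis), with 95% intervals, for the 17 member probes tested there, at 4 and 24 hr. All symbols are open because no probe was called, and the intervals are wider than those of the first set, with SE from 0.17 to 0.87.

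The genes that work with these enzymes were counted from lists of complex subunits, cofactors and readers, 88 genes of which 84 were on the array. A gene was represented by its brightest probe, whereas the background is over all probes. At 4 hr after KBrO3, 49 were higher, 25 lower and 10 not called, with a median of 0.32, beside 36.3% of all probes higher, 35.8% lower and a median of 0.059. After co-exposure the counts were 45, 26 and 13, with a median of 0.20, beside 41.6%, 37% and 0.082. At 24 hr the counts were 36, 20 and 28 after KBrO3, with a median of 0.07, beside 32.1%, 34% and -0.024, and 38, 22 and 24 after co-exposure, with a median of 0.10, beside 32.9%, 37% and -0.067. These shares of all probes are also the background of each list below. After BPA alone limma called 1 of 84 at 4 hr beside 4.24% of all probes, Crat, which moves acetyl groups between CoA and carnitine, at 2.02-fold lower (adjusted p 0.0267). At 24 hr limma called 0 of 84 beside 3.41%. At an unadjusted p below 0.05 there were 13 and 10, and the error-weighted model called 3 and 1. The shares beside the limma counts do not apply to these, and nothing is read from them.

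On the list of partners of Kat6a, Kat6b and Kat7 all 7 genes measured were called and altered at 4 hr after KBrO3, 4 higher and 3 lower, beside 72.1% of all probes called and 28.8% altered. Jade3 was 4.96-fold higher, whereas Jade2 was 5.24-fold and Ing4 3.67-fold lower (adjusted p 4.84e-10, 3.1e-12 and 3.49e-12). The JADE proteins are scaffolds of the HBO1 complex and Ing4 is a reader of methylated histone tails within it. After co-exposure Jade1 was 5.56-fold, Jade2 4.52-fold and Ing4 3.82-fold lower and Jade3 3.31-fold higher. At 24 hr after KBrO3 5 of the 7 were called, 3 higher and 2 lower, of which 1 was altered.

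The 3 partners of Hat1, the chaperones and escorts of newly made histones Rbbp7, Rbbp4 and Nasp, were all higher at 4 hr after both treatments, with medians of 0.68 and 0.44, beside 36.3% and 41.6% of all probes higher. At 24 hr 1 of the 3 was higher after KBrO3, and 2 were higher and 1 lower after co-exposure. Of the CBP and p300 partners 7 of 9 were higher and 1 lower after KBrO3 at 4 hr, with a median of 0.52, and after co-exposure 5 were higher and 3 lower, while at 24 hr 1 was higher and 3 lower after KBrO3 and 2 higher and 4 lower after co-exposure. In the MSL and NSL lists of Kat8, 4 of 10 were higher and 3 lower at 4 hr after KBrO3 and 5 and 3 at 24 hr. Ogt, the enzyme that adds N-acetylglucosamine to proteins, was 3.52-fold lower at 4 hr after KBrO3 (adjusted p 8.52e-09). In co-exposed cells at 4 hr Ogt was 2.18-fold higher than after KBrO3 alone (adjusted p 4.34e-06, limma). At 24 hr after KBrO3 its mean level was 0.83, beside 0.94 in untreated cells. Among the SAGA and ATAC subunits, the complexes of Kat2a and Kat2b, 11 of 21 were higher and 8 lower at 4 hr after KBrO3 and 10 and 2 at 24 hr. Among those of TIP60, the complex of Kat5, 8 of 15 were higher and 6 lower at 4 hr and 7 and 6 at 24 hr. Among the readers of acetylated lysine 5 of 7 were higher and 0 lower at 4 hr after KBrO3, Brd2 by 3.89-fold. Of other acetyltransferases 4 of 7 were higher and 2 lower, and Gtf3c4, a subunit of an RNA polymerase III factor, was 3.96-fold higher. On the acetyl-CoA supply list 3 of 5 were higher and 2 lower. At 24 hr after KBrO3 these lists had 4 higher and 1 lower, 4 and 1, and 1 and 2, in that order.

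**Figure D5:**
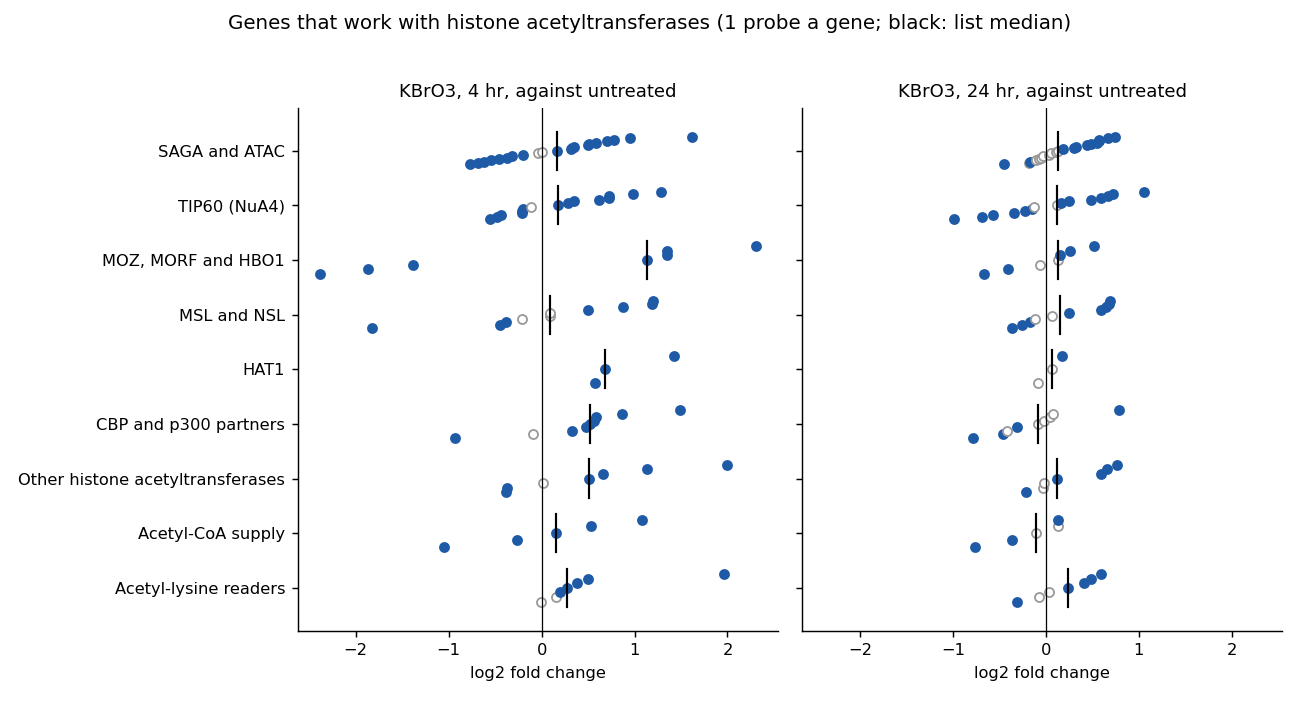
Log2 fold change against untreated cells (x axis) of the genes on 9 lists of histone acetyltransferase partners, at 4 hr (left) and 24 hr (right) after KBrO3, 1 dot a gene. Filled blue dots are called genes, open grey dots genes not called and black bars list medians. The MOZ, MORF and HBO1 list spreads farthest at 4 hr, from Jade2 at -2.39 to Jade3 at 2.31.

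Of the representative probes Kat2b A_51_P257762 had the largest log2 fold change in the first set, and the probes of other named genes most like it over the 15 arrays were those of Ablim1 (Pearson r 0.996), Arhgef17 (0.99), Hltf (0.99), Tppp (0.988) and Emx2 (0.987). These arrays share groups, slides and a normalization, and the values only describe the likeness of the profiles.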

How the data were processed

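RNA was labelled with Cy3 and hybridized to 1-color Agilent mouse arrays. The authors deposited the Feature Extraction output, in which the values are fluorescence intensity values per spot, not normalized between arrays, and per the file headers versions 9.5.3.1 (first set) and 12.0.0.7 (second set) made them, the first as in the methods, while the submitters' processing notes name 12.0. The series table deposited by the authors held the same intensity, with 1080432 of 1080432 values equal to the scanner output. Processed signals were taken to log2, each array's 75th percentile over noncontrol spots was subtracted, outlier-flagged spots were left out, and spots of a probe were averaged (R 4.3.3, data.table, version 1.17.8). limma 3.58.1 (lmFit, eBayes, two-sided) fitted each set on its own, with 1 coefficient per group, and p-values were adjusted over all probes tested, 27310 and 31806. Fold ratios are 2 to the power of the difference. The p-values measure the spread between these arrays. Members, the partner lists and the tests were chosen with earlier results of these data known. All probes of the members were tested where measured, those called are named, a member is represented by its brightest probe, and partner genes are named from the 3 largest called rises and falls per comparison and, for short lists, by their members. The alternatives were quantile normalization, array-median scaling, normexp (offset 50, on the median signal in the second set), the deposited value table, 2 other filters, only the compared groups, slide as random or fixed block, the replicate number as a block, the methods' error weights in an ordinary linear model, and each array left out. The replicate numbers do not pair the arrays, since the deviations of arrays of equal number from their group means correlated at a mean r of -0.029 (first set) and 0.0021 (second set). The steps were tested on simulated data. Figures were drawn with matplotlib 3.10.9.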

Additional observations from a re-analysis of the deposited data

Results flagged for a closer look

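For Kat8 the effect of co-exposure against untreated cells differed between the times, being higher by 0.79 on the log2 scale at 24 than at 4 hr (SE 0.062, adjusted p 1.47e-07 and Bonferroni-adjusted p 0.000968, limma). For Kat2b the effect of KBrO3 against untreated cells was less negative at 24 than at 4 hr by 0.86 on probe A_51_P257762 (SE 0.069, adjusted p 2.18e-07 and Bonferroni-adjusted p 0.00132, limma). Both were picked out because the difference between the times itself passed the thresholds of the methods, only the representative probe of each member being considered, and both comparisons use the same controls at the 2 times. The second Kat2b probe, A_52_P87955, passed the same thresholds at 2.22 after KBrO3 and 3.01 after co-exposure. The arrays of the 2 times share no slide within either treatment.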

How the results depend on the processing

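Of 195 member probe values, 151 kept their side of the threshold, and if called their direction, with normexp. The number was 154 with array-median scaling, 168 with quantile normalization and 176 with slide as a random block. It was 86 of the 99 that could be fitted with slide as a fixed block and 2536 of 2619 with 1 array left out. The direction of values called in neither fit was not compared. The deposited value table equals the scanner values and tests nothing. Among the values called in the main fit, in the alternative or in both, 17 turned in sign, and only these are listed. With normexp the values that turned were Crebbp A_51_P448224 -0.50 and A_52_P239850 -0.41, Kat6a -0.17 and Kat7 A_51_P202699 -0.86 for KBrO3 at 4 hr, Crebbp A_51_P448224 -0.42 and Kat7 A_51_P202699 -0.91 for co-exposure at 4 hr, Kat7 A_51_P202699 -1.5 and -1.4 for KBrO3 and co-exposure at 24 hr, and Ep300 A_52_P179662 -0.15 for KBrO3 at 24 against 4 hr. With array-median scaling they were Crebbp A_51_P518851 0.30 and A_52_P239850 0.27 for co-exposure at 24 hr, Crebbp A_52_P239850 0.42 and Kat7 A_52_P85156 0.45 for co-exposure at 24 against 4 hr, and Kat5 0.03 for co-exposure against KBrO3 at 24 hr. With quantile normalization they were Crebbp A_52_P239850 0.23 and Kat7 A_51_P202699 0.39 for co-exposure at 24 against 4 hr, and Ep300 A_52_P179662 0 for co-exposure at 24 hr. The cause was not tested.

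By the thresholds of the methods the counts of member probes were 4, 5, 3 and 4 for KBrO3 and co-exposure at 4 hr and the same at 24 hr, 1 and 0 for co-exposure against KBrO3 at 4 and 24 hr, 2 and 2 for 24 against 4 hr after KBrO3 and co-exposure, and 0 for the change of the BPA difference with time. With normexp 8 member probes were called for KBrO3 at 4 hr, 2 and 2 for co-exposure against KBrO3 at 4 and 24 hr, 5 for KBrO3 at 24 against 4 hr and 1 for the change with time. Array-median scaling left 4 for co-exposure against KBrO3 at 24 hr, slide as a fixed block 9 for KBrO3 at 4 hr and slide as a random block 4 for co-exposure against KBrO3 at 4 hr. With each array left out in turn the counts ran from 5 to 9 for co-exposure against KBrO3 at 24 hr and from 0 to 1 for BPA at 4 hr, and the counts of the other comparisons stayed within 1.5 times. With the replicate number as a block, KBrO3 gave 14 and 9 called member probes at 4 and 24 hr, co-exposure 13 and 11, co-exposure against KBrO3 7 and 7, and BPA alone 0. The shares of all probes called under these alternatives are not given. Whether the member counts moved more than those of all probes was not tested. Whether the replicate numbers pair the arrays is not known.

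The scaling also moved all probes. The median over all probes went from 0.059 to -0.456 for KBrO3 at 4 hr with normexp. For co-exposure at 24 hr it was -0.067, with normexp -0.518 and with array-median scaling 0.251. The share of calls that were higher went from 48.6% to 61% with array-median scaling and 27.3% with normexp for KBrO3 at 24 hr, and likewise from 47.1% to 68.2% and 29.8% for co-exposure. For co-exposure against KBrO3 array-median scaling moved it from 50.5% to 33.2% at 4 hr and from 49.4% to 73.8% at 24 hr, for co-exposure at 24 against 4 hr from 40.4% to 62.3%, and for the change with time from 47% to 75.9%. Differences smaller than these shifts can turn with the choice of scaling, and so can some larger ones. Kat6a at 4 hr after KBrO3 went from 0.62 to -0.17 with normexp. For probes near background the signal limits what can be measured.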
